A study of Drosophila melanogaster with 6 samples.

Results

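Cytosolic ribosomal protein genes encode the proteins of the large and the small subunit of the ribosome that works in the cytoplasm. On the Affymetrix Drosophila 2.0 expression array, 110 of the 18769 probe sets that were not control probe sets carried a symbol of the RpL, RpS or RpLP series or the symbol sta (stubarista, the small subunit protein SA), and all of them were kept. A probe set is a group of short oligonucleotides that together give 1 value, and some probe sets name more than 1 gene. The 110 probe sets stood for 93 genes, of which 78 had 1 probe set and 15 had more than 1. By role, 56 probe sets belonged to large subunit proteins, 46 to small subunit proteins, 4 to the acidic stalk proteins RpLP0, RpLP1 and RpLP2, and 4 to RpL7-like, RpL24-like and RpLP0-like, whose yeast counterparts are ribosome assembly factors.

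The study compared gene expression between a young age group and an old age group of Drosophila melanogaster. Each group had 3 biological replicates, each hybridised to its own array. Per the labels and methods, virgin females of the isogenic y(1), w67c23(2) background were housed together with males and mated, the flies were kept at 20 °C on food with yeast, and RNA of whole bodies was purified from 100 females and 100 males per replicate at 3 days (young) or 45 days (old). The labels name no difference between the groups other than age. Samples are called Young1 to Young3 and Old4 to Old6, since the table numbers the old samples 4 to 6 while their titles number them 1 to 3.

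A ribosome needs 1 copy of nearly every one of these proteins, and their genes are transcribed together at a high rate in growing cells. In Drosophila, loss of 1 copy of many of these genes gives the Minute phenotype of slow growth and thin bristles, and lowering signalling through the Tor kinase, which promotes ribosome production, is known to lengthen life. In females, the nurse cells of the ovary make large numbers of ribosomes and load them into the egg.

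The values were log2 signals after GCRMA, so that 1 unit is a 2-fold difference, and they ran from 1.51 to 15.05 over the array. Values near 2 stand for probe sets at the low end of the scale, and 56.0% of all values lay under log2 4. Array medians lay between 2.45 and 2.47, and replicates of a group correlated at 0.993 to 0.998 across probe sets. The makeup of the samples was checked against marker genes, taking the brightest probe set of each. All 13 testis genes stayed under log2 4 in all 6 samples (highest value 2.48), as did 13 of 14 male accessory gland genes (highest value 2.47), so that these markers of male organs gave no signal on arrays labelled as holding both sexes. The results text of the study names females, while its methods and the labels give both sexes. The 1 exception in the accessory gland list was Acp95EF, with means of 12.97 in young and 12.95 in old samples. The 9 female germline genes summed to log2 16.58 to 16.69 in the young samples and 16.54 to 16.62 in the old ones. All 16 eggshell genes had a lower mean in old flies, with the sum at 17.57 to 17.65 in young samples and 10.37 to 16.38 in old ones (lowest in Old6). Under the 3 criteria and the FDR explained below, 4 of the 16 were called lower and 0 had an FDR under 0.05. In flight muscle, 10 of 11 genes were called lower and 7 were lower at an FDR under 0.05, with the sum at 16.97 to 17.17 against 15.26 to 15.97. Of all probe sets, 6.41% were called and 12.7% had an FDR under 0.05. The part of the eggshell and flight muscle shifts in the results given here was not tested.

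Most ribosomal protein transcripts differed little between young and old flies. A log2 change is the old mean minus the young mean, fitted with limma over all probe sets, and FDR is the Benjamini-Hochberg adjusted p over all of them. With the 3 criteria of the methods (more than 2-fold, unadjusted p under 0.05, FDR under 0.15), 1 of 110 probe sets was called, lower in old flies, against 6.41% of all probe sets tested. At an FDR under 0.05 with no fold criterion, 13 of 110 (11.8%) passed, against 12.7% of all probe sets. Of these 13, 11 were lower and 2 higher in old flies, while over the whole array 5.82% of probe sets were lower and 6.91% higher at this FDR. The 3 young and 3 old values did not overlap in 26 members (23.6%), of which 23 were lower in old flies and 3 higher. Over all 18769 probe sets the share was 28.7%, with 2370 lower and 3014 higher. In whole-body RNA, fewer cells of a type and less RNA per cell cannot be told apart.

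The sizes were small beside those of all probe sets of the array with a mean of log2 12 or more. Of the 110 probe sets, 90 had a mean of log2 12 or more, with single values from 12.22 to 14.91. Among these 90, 9 (10.0%) had an FDR under 0.05 (8 lower, 1 higher) against 23.6% of the 2777 probe sets of the array with such a mean, and the groups did not overlap in 21 (23.3%) against 50.5%. The median size of the log2 change, without its sign, was 0.0412 for the 90 and 0.120 for the 2777, while the median spread within a group was 0.0558 and 0.0715. The signed median was -0.00698 for the 90 members. The 95% interval of the change lay within 1.25-fold either way in 82 of the 90, and in 1655 of the 2777, and all 90 intervals lay within 2-fold. The 90 and the 2777 were not matched for signal above log2 12. Whether signal at the top of the scale understates a change was not tested, and 3 arrays per group limit the precision.

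**Figure D1:**
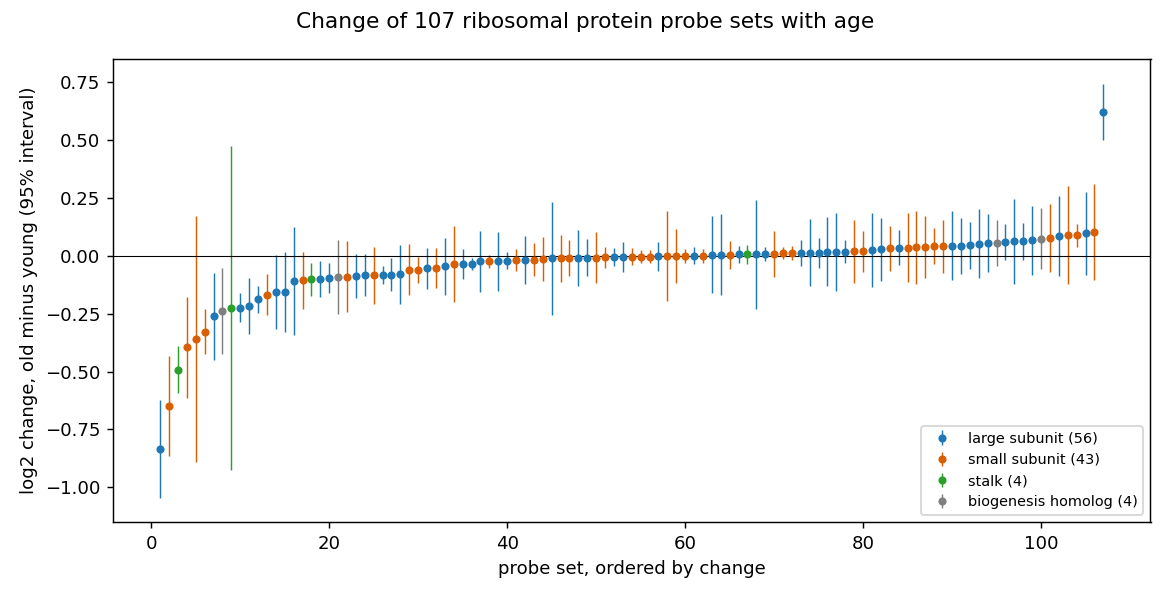
Log2 change (old minus young, with its 95% interval) of 107 ribosomal protein probe sets, ordered by change and coloured by role. Most points sit near the 0 line, with RpL3 at -0.83 the lowest drawn and RpL12 at 0.62 the highest.

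Both subunits had medians near 0. The 48 bright large subunit probe sets had a median log2 change of -0.00508 and ran from -0.23 to 0.10, with 25 of them negative. The 36 bright small subunit probe sets had a median of -0.00788 and ran from -0.65 to 0.10, with 21 negative. Over all levels, 5 large subunit probe sets were lower and 1 was higher at an FDR under 0.05, and the counts were the same for the small subunit, 5 lower and 1 higher. The remaining lower probe set was that of RpLP0 in the stalk.

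RpL32 (rp49), widely used as a reference transcript for quantitative PCR in flies, measured 14.09, 14.00 and 13.89 in Young1 to Young3 and 14.09, 13.97 and 13.99 in Old4 to Old6. The groups overlapped, and its log2 change of 0.02 had a 95% interval of -0.14 to 0.18 (limma, FDR 1). RpS6, the small subunit protein that S6 kinase phosphorylates, measured 14.20, 14.16 and 14.08 in young samples and 14.16, 14.17 and 14.16 in old ones, again overlapping. RpS27A and RpL40, which are made as fusions to ubiquitin, had log2 changes of 0.03 (interval -0.12 to 0.18) and 0.02 (interval -0.03 to 0.07).

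Small deviations were shared among the bright members of single samples. Young3 was the lowest of the 6 samples in 52 of the 90 (57.8%), against 30.5% of the 2777 probe sets at this signal, and Old6 was the lowest in 26 (28.9%, against 16.3%). The median deviation of the 90 from their own mean over the 6 samples was 0.0454 in Young1, 0.0249 in Young2, -0.0539 in Young3, 0.0204 in Old4, -0.00447 in Old5 and -0.0196 in Old6. The medians of the young samples thus lay on both sides of those of the old ones. The median log2 change over all 110 members, -0.00656, became -0.0284 without Young3 and 0.00627 without Young1, so its sign rests on single samples.

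**Figure D2:**
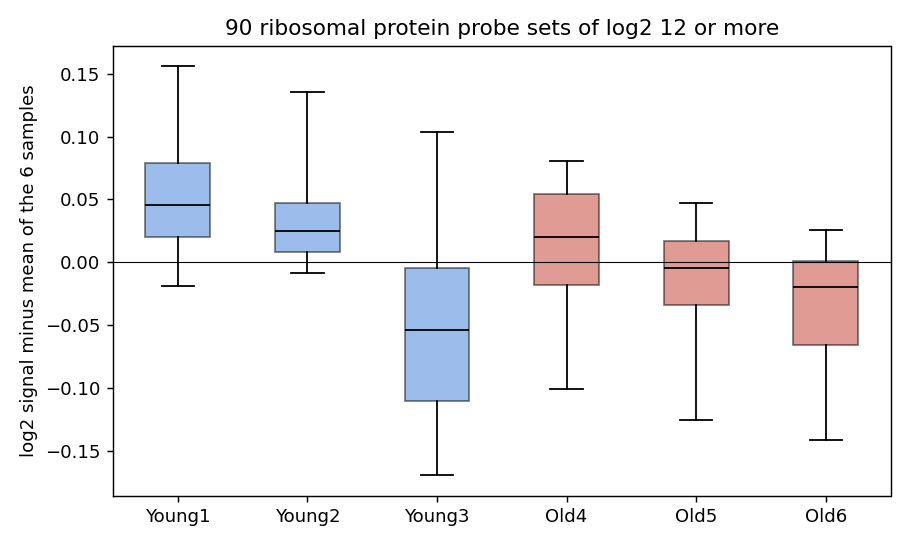
Log2 signal of the 90 ribosomal protein probe sets with a mean of log2 12 or more, as the deviation of each sample from the mean of the 6 samples; boxes show quartiles with the median as a line, and whiskers run from the 5th to the 95th percentile. The box of Young3 (median -0.0539) lies lowest and that of Young1 (median 0.0454) highest, with the 3 old samples between them.

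Probe sets of the same gene did not always give the same result. RpL3 is a protein at the peptidyl transferase centre of the large subunit. Probe set 1625889_at measured 10.89, 10.98 and 10.99 in young samples and 10.02, 10.29 and 10.05 in old ones. The groups did not overlap, and the log2 change was -0.83 (SE 0.0815), a fold difference of -1.78 with an FDR of 0.00571. The brighter probe set 1630270_s_at measured 13.94, 13.95 and 14.00 in young flies against 13.90, 13.85 and 13.85 in old flies, a log2 change of -0.10 with an FDR of 0.0806. Here too the groups did not overlap. The last one, 1634685_at, stayed at 2.35 to 2.40 in all samples.

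RpL12, a protein at the base of the stalk, had such a difference with the other sign. Probe set 1627312_at measured 11.55, 11.48 and 11.64 in young samples and 12.15, 12.16 and 12.23 in old ones, and it had the largest increase of all 110 members. The log2 change was 0.62 (SE 0.0471, interval 0.50 to 0.74), a fold difference of 1.54 with an FDR of 0.00334, short of the 2-fold criterion. The brighter RpL12 probe set, 1640446_s_at, measured 14.23, 14.16 and 14.04 against 14.20, 14.13 and 14.14, with overlapping groups and a log2 change of 0.01 (interval -0.13 to 0.16).

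Counted over the list, 6 members had a mean under log2 12 without lying under log2 4 in all samples, and 4 of these 6 had an FDR under 0.05 (among them those of RpL3, RpL12 and RpS30), against 28.6% of the 5816 probe sets of the array in this range. The RpS30 probe set 1625943_at measured 9.92, 9.95 and 9.93 in young flies and 9.76, 9.70 and 9.83 in old ones, a log2 change of -0.17 with an FDR of 0.0430, while the brighter 1623997_s_at had a log2 change of -0.04 (interval -0.20 to 0.13). Each of these 3 genes had a brighter probe set above an FDR of 0.05. At the same signal, RpS9 probe set 1624070_at measured 11.29, 11.27 and 10.78 against 10.53, 11.04 and 10.69, with overlapping groups and an FDR of 0.431, while its brighter probe set 1635388_s_at had a log2 change of -0.06 and an FDR of 0.163.

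**Figure D3:**
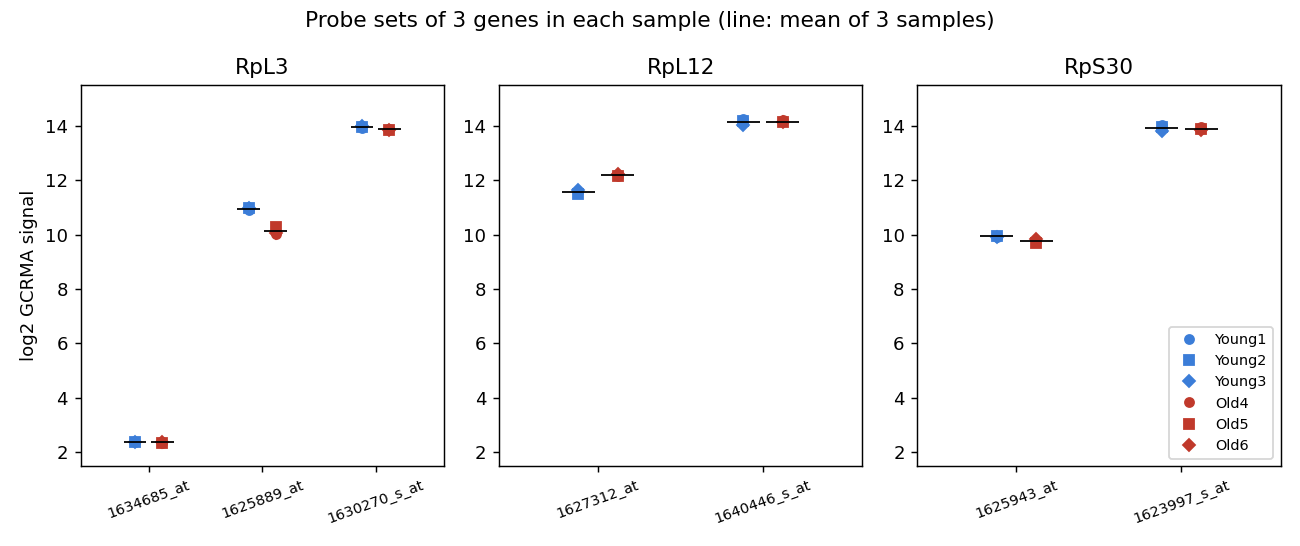
Log2 GCRMA signal of each probe set of RpL3, RpL12 and RpS30 in the 6 samples, young in blue and old in red, with the group mean as a line. In each gene the dimmer responding probe set separates the groups (RpL3 1625889_at from 10.96 to 10.12, RpL12 1627312_at from 11.56 to 12.18, RpS30 1625943_at from 9.93 to 9.77) while the brightest one differs between group means by 0.10 or less. The brightest RpL3 probe set also separates the groups, by less, and those of RpL12 and RpS30 do not.

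Some bright single probe sets did fall. RpS2, a protein of the small subunit, is read by 1 probe set that measured 13.80, 13.70 and 13.75 in young samples and 13.25, 13.09 and 12.96 in old ones. The lowest young value was above the highest old value by more than the spread within either group. Its log2 change was -0.65 (SE 0.0829, interval -0.86 to -0.43), a fold difference of -1.57 (63.8% of the young level) with an FDR of 0.0112. Without Old5 the FDR was 0.0523.

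The stalk recruits elongation factors to the ribosome. RpLP0, which anchors it to the large subunit, measured 14.08, 13.95 and 14.02 in young samples and 13.55, 13.52 and 13.50 in old ones. The groups stood apart, with a log2 change of -0.49 (SE 0.0394, fold difference -1.41, FDR 0.00365). RpLP1 and RpLP2, which bind to RpLP0 as dimers, had no FDR under 0.05. RpLP1 measured 14.31, 14.38 and 14.29 against 14.22, 14.25 and 14.21, a log2 change of -0.10 (interval -0.18 to -0.03) with an FDR of 0.0904. RpLP2 measured 14.67, 14.67 and 14.63 against 14.65, 14.66 and 14.67, a log2 change of 0.00 with an interval of -0.04 to 0.05. A second probe set named for RpLP0, 1626369_at, lists CG12269 as well and carries the identifier FBgn0038665, not that of RpLP0 (FBgn0000100), and its values of 6.04 to 7.02 overlapped between groups.

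The protein SA gene sta is read by probe set 1638847_s_at, whose symbol field also names Pgk, the glycolytic phosphoglycerate kinase. It measured 14.29, 14.26 and 14.30 in young samples and 14.01, 13.98 and 13.88 in old ones. The groups did not overlap, and the log2 change was -0.33 (SE 0.0375) with an FDR of 0.00840.

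RpL10Ab, a large subunit protein of the L1 stalk, measured 14.43, 14.38 and 14.35 in young flies and 14.18, 14.16 and 14.15 in old ones. The difference was small but well above the spread, with a log2 change of -0.23 (SE 0.0239) and an FDR of 0.00699. RpL13A measured 13.21, 13.19 and 13.16 against 12.99, 13.03 and 12.97, a log2 change of -0.19 with an FDR of 0.00924. RpL4, a protein that lines the exit tunnel, measured 14.39, 14.39 and 14.42 against 14.30, 14.32 and 14.32, and its log2 change of -0.08 had an FDR of 0.0267. In each of these 3 genes all young values lay above all old values.

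Probe set 1638654_at, named for RpL36A together with CG14645, measured 13.82, 13.94 and 13.85 in young samples and 13.60, 13.72 and 13.64 in old ones, a log2 change of -0.22 with an FDR of 0.0460. Its identifier, FBgn0040687, is not that of RpL36A (FBgn0031980). The probe set that carries the RpL36A identifier, 1632962_at, measured 14.43, 14.35 and 14.27 against 14.31, 14.27 and 14.22, with overlapping groups and an FDR of 0.475. In all, 17 of the 110 probe sets named several genes, and 3 of them carried the identifier of another gene than the ribosomal protein (1 of RpLP0 and 2 of RpL36A).

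The second increase was in the RpS14 pair. RpS14a and RpS14b are neighbouring duplicates that encode the same protein, and both probe sets name both genes in the symbol field. Their identifiers differ, with FBgn0004404 for 1624337_at and FBgn0004403 for 1624564_s_at. Whether either probe set reads a single copy was not tested. Probe set 1624337_at measured 14.13, 14.19 and 14.13 in young samples and 14.23, 14.24 and 14.24 in old ones, a log2 change of 0.09 with an FDR of 0.0477. The other, 1624564_s_at, measured 14.53, 14.48 and 14.41 against 14.52, 14.47 and 14.45, with overlapping groups and a log2 change of 0.01. RpL35 also had probe sets of both signs, at -0.11, 0.08 and 0.10, each with an FDR above 0.6. The groups overlapped in the first and the last, while in 1627206_at (0.08) all old values lay just above the young ones.

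**Figure D4:**
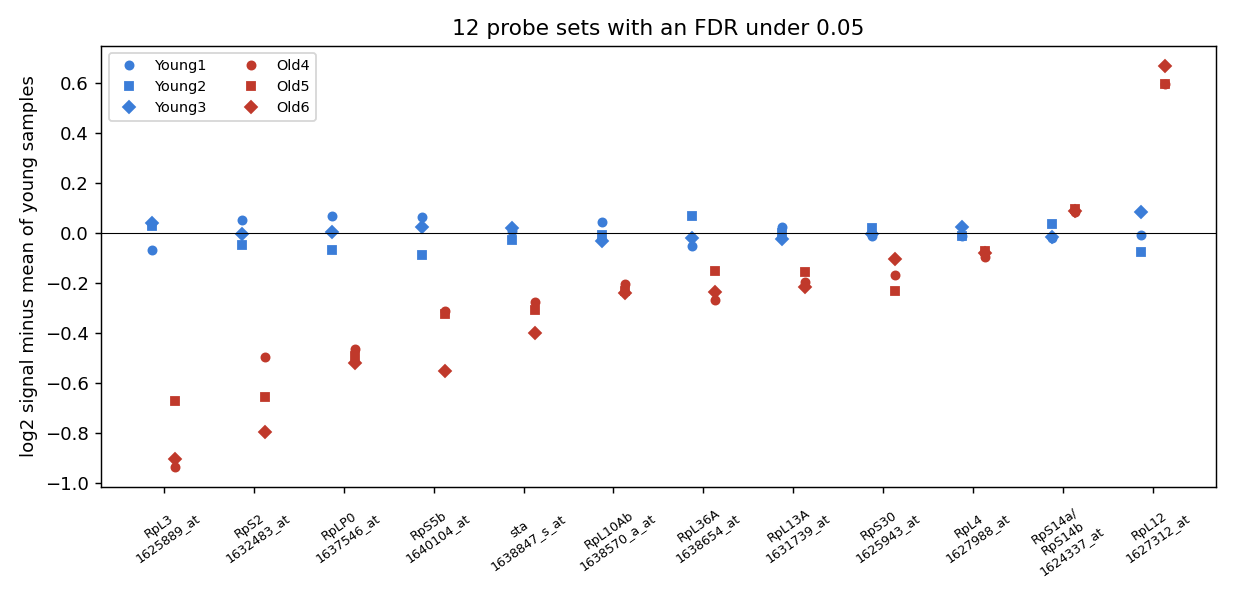
Log2 signal of each sample minus the mean of the young samples, for 12 probe sets with an FDR under 0.05, ordered by change. Old samples (red) lie below the young ones (blue) in 10 probe sets, from RpL3 at -0.83 to RpL4 at -0.08, and above them in RpS14a/RpS14b at 0.09 and RpL12 at 0.62.

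Several ribosomal proteins of Drosophila have a second gene copy, and some of these copies are known to be used mainly in the germline. RpS5b, the copy known for its role in the female germline, is read by a probe set of its own. It measured 13.72, 13.57 and 13.68 in young samples and 13.34, 13.33 and 13.10 in old ones, a log2 change of -0.40 (SE 0.0831) and a fold difference of -1.32 with an FDR of 0.0447. The groups did not overlap, but the FDR was above 0.05 whenever any 1 sample was left out. RpS5a, its partner, measured 13.98, 14.05 and 13.95 against 13.98, 14.07 and 14.03, with overlapping groups and a log2 change of 0.03 (interval -0.06 to 0.13). The female germline markers, given above, had a median log2 change of -0.10, with 1 of 9 lower (otu) and 1 higher (bcd) at an FDR under 0.05. This FDR was passed by 12.7% of all probe sets and by 23.6% of those with a mean of log2 12 or more.

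The other 7 such copies stayed at the low end in every sample. RpL22-like, a copy known from the testis, measured 2.13 to 2.17, and RpL10Aa measured 2.32 to 2.36. RpL37b, RpS10a, RpS19b, RpS28a and RpS28-like did likewise, between 1.69 and 2.14. Their counterparts RpL22, RpL37a, RpS10b, RpS19a and RpS28b were bright in both groups, with log2 changes from -0.08 (RpL22) to 0.04 (RpS28b), and only RpL10Ab among the partners passed an FDR of 0.05. The testis markers, and the accessory gland markers other than Acp95EF, lay at the same low end. RpL34a and RpL34b were both bright, with log2 changes of -0.16 (FDR 0.253) and -0.01.

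**Figure D5:**
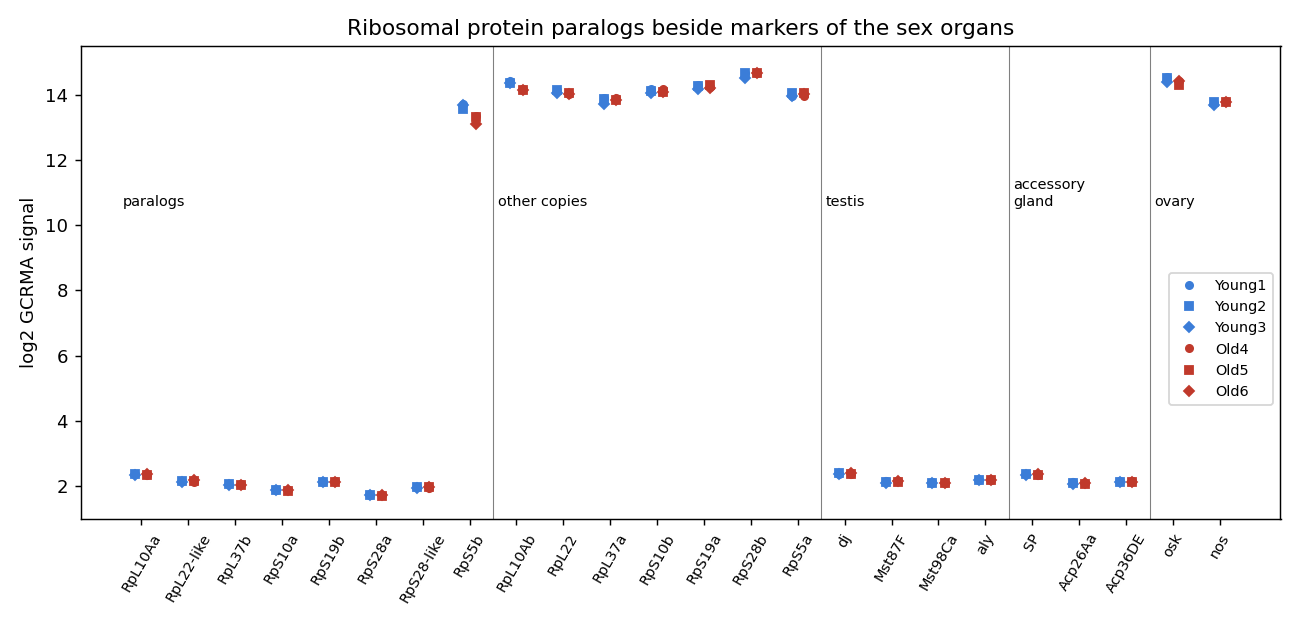
Log2 GCRMA signal in the 6 samples for ribosomal protein copies and their partners, beside testis, accessory gland and ovary markers. Apart from RpS5b, the first block sits near 2 with the testis and accessory gland markers drawn, while the partners and the ovary markers osk and nos sit near 14.

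Altogether 14 of the 110 probe sets stayed under log2 4 in all samples, with values from 1.69 to 3.31. Besides the 7 copies they were further probe sets of genes that were bright elsewhere on the array, such as RpS6, RpL3 and RpL28, and 1 of RpL7-like. Among the 14, 3 probe sets, for RpS6, RpS7 and RpS29, had no FlyBase identifier. The RpL28 probe set 1633905_at, which also names the small nucleolar RNA Or-CD12, measured 3.31, 3.21 and 3.15 in young samples and 3.00, 2.84 and 3.05 in old ones, and its FDR was 0.0945. Values at this end of the scale give no usable level.

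The 3 genes named after ribosomal proteins that act in ribosome assembly in yeast were bright. RpLP0-like measured 12.47, 12.43 and 12.66 in young samples and 12.33, 12.22 and 12.28 in old ones, a log2 change of -0.24 with an FDR of 0.114. The groups did not overlap. RpL24-like and RpL7-like had log2 changes of 0.07 (interval -0.06 to 0.21) and 0.05 (interval -0.05 to 0.15).

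Genes around ribosome production were read in the same fit, with the brightest probe set for each. Of 26 ribosome biogenesis genes, which include those 3, 5 passed an FDR of 0.05, all lower in old flies. The median log2 change was -0.11, with 23 of 26 negative. Over all probe sets, 5.82% were lower and 6.91% higher at this FDR. That share includes many probe sets at the low end, while 0 of the 26 genes stayed under log2 4 in all samples. With a mean of log2 12 or more, 11.3% of probe sets were lower and 12.3% higher. Between that mean and the low end, 28.6% passed in either direction. Nmd3, the export adaptor of the large subunit, measured 11.66, 11.59 and 11.83 in young samples and 10.34, 10.75 and 10.32 in old ones. The groups stood far apart (log2 change -1.22, FDR 0.00915). Nmd3 was the 1 gene of the list that met the 3 criteria, against 6.41% of all probe sets. Fib (fibrillarin, which methylates ribosomal RNA) measured 12.13, 12.06 and 12.10 against 11.44, 11.62 and 11.52 (log2 change -0.57, FDR 0.00475). NHP2, bys and Nop56, which also act in the nucleolus, had log2 changes of -0.28, -0.27 and -0.22, all with groups apart. The groups stood apart in 14 of the 26 genes. They did so in 28.7% of all probe sets and in 50.5% of those with a mean of log2 12 or more. With the brightest probe set for each gene, 91 cytosolic ribosomal protein genes had 7 at an FDR under 0.05, all lower, with a median of -0.0037.

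Of 6 RNA polymerase I genes, 1 was higher at an FDR under 0.05. This was Tif-IA, the initiation factor of ribosomal RNA transcription, with 13.08, 13.15 and 12.90 in young samples and 13.40, 13.38 and 13.42 in old ones (log2 change 0.36, FDR 0.0360). The polymerase subunit RpI135 had a log2 change of -0.30 with an FDR of 0.0550. Of 17 growth regulators of ribosome production, 2 passed an FDR of 0.05, both higher. Beside both lists, 12.7% of all probe sets passed this FDR, as did 23.6% of those with a mean of log2 12 or more. The share was 28.6% for probe sets under that mean that were not under log2 4 in all samples. Xrp1, a transcription factor of the response to loss of ribosomal protein genes, measured 10.90, 11.03 and 11.06 in young flies and 11.77, 12.15 and 11.86 in old flies, and the groups stood apart (log2 change 0.93, FDR 0.00961). Akt1, a kinase upstream of Tor, had a log2 change of 0.58 (FDR 0.00803). Myc (0.10), the translational repressor Thor (0.04), S6k (-0.02) and Tor (-0.30, FDR 0.256) had no FDR under 0.05.

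Mitochondrial ribosomal protein genes, which form a separate ribosome, had 12 of 71 lower and 4 higher at an FDR under 0.05, a median log2 change of -0.10 and 51 of 71 negative. The 3 criteria called 1 of them, mRpL2, against 6.41% of all probe sets. It measured 9.49, 9.90 and 10.16 in young samples and 8.89, 8.64 and 8.13 in old ones (log2 change -1.29, FDR 0.0449). Of 38 translation factor genes, 1 was lower (eIF2B-delta, log2 change -0.66) and 1 higher (eIF3ga, 0.11), and the median was -0.0011. At an FDR under 0.05, 12.7% of all probe sets passed (5.82% lower, 6.91% higher). Of those with a mean of log2 12 or more, 23.6% passed (11.3% lower, 12.3% higher). The share was 28.6% for probe sets under that mean that were not under log2 4 in all samples. The differences between these lists and the cytosolic ribosomal proteins were not tested.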

How the data were processed

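Total RNA of whole flies was amplified from poly(T) and random primers and hybridised to Affymetrix Drosophila 2.0 arrays. The deposited table holds log2 values per probe set that the authors made with GCRMA (background correction by probe sequence, quantile normalisation and summarisation) in Partek 6.5. These steps force the arrays to one distribution, so a change common to most transcripts cannot be read. The fold changes and p-values of the authors' own comparison were not used.

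After leaving out 183 of 18952 probe sets as controls, 18769 were fitted with limma 3.58.1 in R 4.3.3 (lmFit and eBayes, old minus young, no covariates), and p-values were adjusted over all 18769 by Benjamini-Hochberg. The criteria of the methods were kept, with limma in place of SAM. Signals of different probe sets are not a measure of their transcripts' relative levels. The 3 samples per group are biological replicates per the methods, and the smallest two-sided p of an exact permutation test of 3 against 3 is 0.1.

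Members were found by symbol. Of the 93 genes, 91 matched a RefSeq symbol and 2 a synonym. Genes were named where called, where among the 8 largest changes per direction at an FDR under 0.05 with groups apart, and where they were stalk genes, paralogs, sta or genes whose probe sets disagreed in sign. RpL13A, RpL4, RpL32, RpS27A, RpL40, RpS9, RpS30 and RpL28 were added after their values were seen. The members, gene lists and marker lists were chosen with earlier results of these data known. Lists were described by counts and medians. Alternatives covered the test, the variance prior, scaling, low values, probe sets per gene and each sample left out. The fit was tested on simulated data. The values of 1 member gene are not reported here.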

Additional observations from a re-analysis of the deposited data

How the results depend on the processing

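The count of called ribosomal protein probe sets was 1 in every setting but 1. With only the brightest probe set of each symbol it was 0, since the called probe set is not the brightest of its gene and is then left out. The count at an FDR under 0.05 was 13, and it was 9 with the plain two-sample test, 8 with the brightest probe set of each symbol, and 7 to 11 with each sample left out (7 without Old5, 8 without Old4). The median log2 change ran from -0.0284 to 0.00627 with each sample left out.

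Of the 13 probe sets, 7 kept an FDR under 0.05 in every alternative that held them (among them RpL3, RpLP0, sta, RpL10Ab, RpL13A and RpL12), RpS2 missed it in 1, and 5 (RpS5b, RpL36A, RpS30, RpL4, RpS14a/RpS14b) missed it in more. No direction reversed. With the brightest probe set of each symbol, RpL3 and RpL12 were read by other probe sets, above an FDR of 0.05 in the main fit. Leaving out members under log2 4 in all samples was chosen after seeing the data. That setting reused the main fit, so no FDR could change in it. No paired analysis was possible because the old columns of the table are numbered 4 to 6 and carry no replicate number of the labels. With 3 arrays per group the precision is limited, and members under log2 4 give no usable level.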
